A study of Mus musculus with 25 samples.

Results

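The peptide systems described here were the ligands Adcyap1 and Crh, the binding protein Crhbp, and the receptors Adcyap1r1, Crhr1, Crhr2, Avpr1a, Oxtr, Npy1r and Npy2r. They were chosen by name, as every probe set that the annotation of the Affymetrix Mouse 430_2.0 array gave to a single member gene. This gave 18 of the 45037 probe sets tested, for 10 of the 18193 genes with a probe set of their own. All 10 genes were measured, and no member probe set was shared with a second gene.

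These genes encode parts of the peptide signals through which the brain sets its response to stress. Corticotropin-releasing hormone (CRH) and the pituitary adenylate cyclase-activating polypeptide (PACAP) drive the stress response and excite hippocampal neurons, through receptors that couple to cyclic AMP. Neuropeptide Y opposes them and dampens excitation through receptors that lower cyclic AMP, while vasopressin and oxytocin act on receptors that release intracellular calcium and influence social behavior and memory.

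The tissue was the CA1 region of the hippocampus, microdissected from adult female mice of the inbred strain Balb c/J, with 1 array per mouse. Handled mice had as pups spent 15 minutes of each morning away from the mother, from postnatal day 1 to day 14, and non-handled mice had been left undisturbed. Both groups shared strain, sex, behavioral testing at 8 weeks of age and tissue collection 2 weeks later, and differed in no allele or drug. The 11 handled mice consisted of 7 whose RNA was purified on Qiagen RNA/DNA columns and 4 with Trizol, and the 14 non-handled mice of 10 and 4 by the same methods. All RNA went through a double round of amplification before labeling. The mice came from 11 litters, and handling was given to whole litters, so littermates shared the treatment. The litter of each mouse was not known here, so the tests treated mice as independent. The standard errors and p-values of handling may therefore be too small.

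The values were MAS 5.0 signal, a linear probe set intensity on an array scaled by a single factor. The 25 arrays correlated with each other at 0.805 to 0.918, and none were identical. The markers of CA1 pyramidal cells were bright in every mouse, with Wfs1 at 5302 or more and Ccn3 at 9649 or more, and limma called none of the 7 between handled and non-handled mice (2 had an unadjusted p under 0.05), although 1 of the 7 was lower in handled mice of the columns. Of the other marker lists over all mice, 2 of 6 markers of CA2 pyramidal cells and 2 of 5 of endothelial and mural cells were lower in handled mice, and 1 of 5 of astrocytes and 1 of 4 of the thalamus were higher, where 9.7% of lead probe sets (the brightest of each gene) were lower and 4.47% higher. The summed signal of the endothelial and mural markers was 1482 to 3342 in handled mice, against 1897 to 3890 in non-handled mice, that of the CA2 markers 3763 to 7205 in handled mice, against 4281 to 7346 in non-handled mice, and none of these markers was at 0. Their part in the values of the members was not tested. The variance of the natural log of signal was larger on arrays of handled mice (3.80 ± 0.349, n = 11) than on arrays of non-handled mice (3.32 ± 0.300, n = 14, SD), and their median signal was lower (104 ± 22.99 in handled and 121 ± 20.8 in non-handled mice). On these arrays dim probe sets ran lower in handled mice as a class. The median difference between handled and non-handled mice was -0.54 on the log2 scale in the dimmest decile of probe sets and 0.06 in the brightest, and called members are therefore given beside the median of their own decile.

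Adcyap1, Avpr1a and Crhr1 were each lower in handled mice at a probe set, by 1.62- to 2.04-fold. With handling and extraction as terms in limma, 3 of the 18 member probe sets were lower at an adjusted p under 0.05, and none were higher. Over the whole array 11.5% of probe sets were called, 7.93% lower and 3.58% higher. At an unadjusted p under 0.05 the only member probe set with a positive difference was Npy1r 1421471_at (p = 0.0196). Negative differences made up 13 of 18 in the members and 64.3% over the whole array, and the median difference was -0.42 in the members and -0.15 over all probe sets. When the arrays were brought to a common distribution by quantile normalization, or scaled to the same mean and variance, the median over all probe sets moved to 0.02 and 0.03 and that of the members to -0.13 and -0.14, and under either setting 0 of the 18 member probe sets were called. Among the 9 member probe sets in the upper 50% of signal the median difference was -0.03. In bulk tissue, fewer cells of a type and less RNA per cell cannot be told apart.

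**Figure D1:**
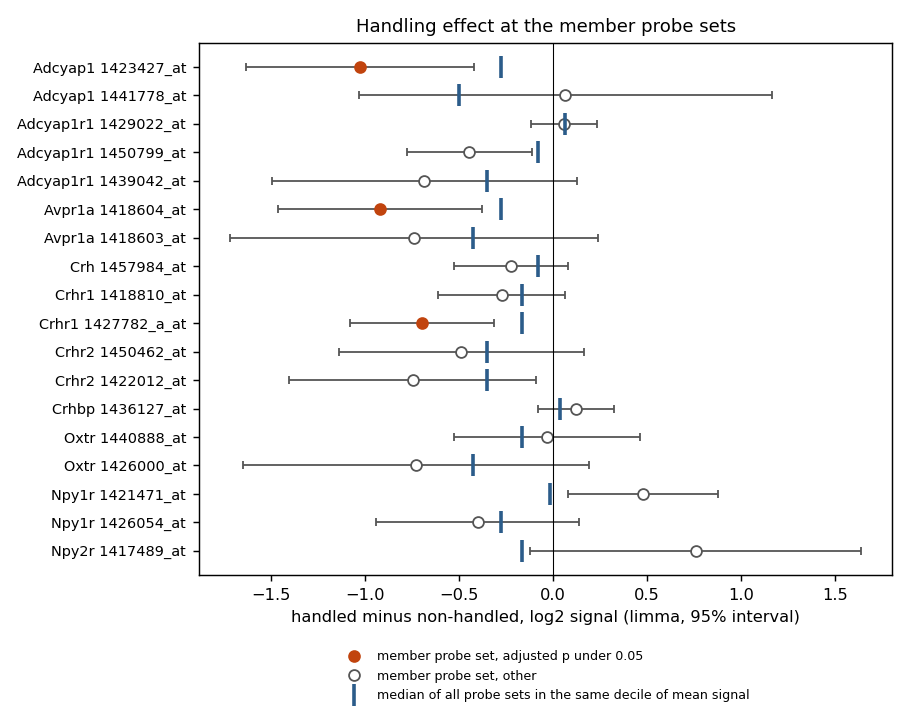
Difference between handled and non-handled mice at each of the 18 member probe sets, in log2 signal on the x axis, as limma estimates (points) with 95% intervals (bars) from 11 handled and 14 non-handled mice. Filled points are the 3 probe sets with an adjusted p under 0.05, all below 0, and blue ticks give the median of all probe sets of the same decile of mean signal, which lies at or below 0.06 throughout.

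Adcyap1, which encodes the precursor of PACAP, had the most negative difference of the 18. The 250 bases before the downstream of its 2 starts in RefSeq (GRCm38.p6, chr17:93198918-93199167, plus strand) are shown here with those of Avpr1a (chr10:122448249-122448498, plus strand) and Crhr1 (chr11:104132531-104132780, plus strand), since these are the genes that were lower in handled mice. Capitals mark TGACG, the core of the cyclic AMP response element, searched on both strands, and TATAAA, the TATA box, searched on the given strand.
Adcyap1: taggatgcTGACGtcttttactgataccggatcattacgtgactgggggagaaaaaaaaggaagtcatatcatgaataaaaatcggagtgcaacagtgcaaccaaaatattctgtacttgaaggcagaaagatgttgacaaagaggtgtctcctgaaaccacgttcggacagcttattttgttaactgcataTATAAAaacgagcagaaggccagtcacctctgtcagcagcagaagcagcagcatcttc
Avpr1a: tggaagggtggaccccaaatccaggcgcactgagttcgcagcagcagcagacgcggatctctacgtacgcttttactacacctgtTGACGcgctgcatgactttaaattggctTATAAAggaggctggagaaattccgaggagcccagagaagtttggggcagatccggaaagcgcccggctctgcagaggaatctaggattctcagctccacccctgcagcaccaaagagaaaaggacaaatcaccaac
Crhr1: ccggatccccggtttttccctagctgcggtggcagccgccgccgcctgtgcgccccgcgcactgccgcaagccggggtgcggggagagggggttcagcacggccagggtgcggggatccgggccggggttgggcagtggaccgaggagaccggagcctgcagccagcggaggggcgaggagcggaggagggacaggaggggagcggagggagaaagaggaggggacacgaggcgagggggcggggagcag
The Adcyap1 window held TGACG 242 bases and TATAAA 58 bases before that start. The window of its upstream start (chr17:93198767-93199016) overlaps this one and held TGACG 91 bases before the start and no TATAAA. The Avpr1a window also held both. The Crhr1 window held neither, and none of the windows held the full element TGACGTCA. Over 32851 RefSeq promoters of the same length, 17.8% held TGACG, 1.55% held TGACGTCA and 7.59% held TATAAA, so these matches only describe the windows. RefSeq windows were found for 9 of the 10 members.

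The signal of Adcyap1 at 1423427_at was 10.6 at the lowest, 66.6 at the median and 107 at the highest in 7 handled mice of the column extraction, against 68.7, 99.9 and 189 in 10 non-handled mice. In the Trizol mice it was 36.5, 43.4, 76.9 and 116.3 in handled mice, against 110, 130, 145 and 179 in non-handled mice. The groups overlapped under both methods, but 6 of 11 handled mice lay below every non-handled mouse, and 10 of 11 lay below the non-handled median. The difference was -1.03 ± 0.30 on the log2 scale (SE, limma adjusted p = 0.0231), which is 2.04-fold lower in handled mice, where the median of its decile was -0.27. In that decile 7.66% of probe sets had a more negative difference. The Adcyap1 difference stayed past the threshold without any single mouse (adjusted p 0.0171 to 0.0456), but not after quantile normalization (-0.74, adjusted p = 0.128) or scaling to a common variance (-0.76, adjusted p = 0.102). A second probe set of the gene, 1441778_at, stayed below the median of the array in all 25 mice and showed a difference of 0.07 ± 0.54 (adjusted p = 0.953).

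Avpr1a encodes the V1a receptor for vasopressin. At 1418604_at its signal ran at 27.2, 68.4 and 108.5 (lowest, median and highest) in handled mice of the column extraction, against 70.6, 103 and 184 in non-handled mice. With Trizol the values were 21.5, 81.3, 96.6 and 127 in handled mice, against 120, 147.3, 161.9 and 219.5 in non-handled mice. Here, too, the groups overlapped at their edges, with 10 of 11 handled mice below the non-handled median and 5 below the lowest non-handled mouse. The difference was -0.92 ± 0.27 (SE, limma adjusted p = 0.0231), or 1.89-fold lower in handled mice, against a median of -0.27 in its decile. In that decile 10.5% of probe sets had a more negative difference. The call rested in part on mouse H108, which had the lowest handled signal of the columns, since without it the difference was -0.80 with an adjusted p of 0.0515. It was also lost after quantile normalization (-0.64, adjusted p = 0.130) and scaling (-0.66, adjusted p = 0.110). The other probe set, 1418603_at, was below the array median in every mouse and gave -0.74 ± 0.48 (adjusted p = 0.325), or -0.31 without H117.

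Crhr1 encodes the main brain receptor for CRH, and its 2 probe sets differed in how far they moved. At 1427782_a_at the signal was 71.5, 91.4 and 110 (lowest, median and highest) in handled mice of the columns, against 71.5, 168 and 238 in non-handled mice. Among Trizol mice the signals were 77.0, 84.7, 117.4 and 128 in handled mice, against 103, 125.7, 140 and 194 in non-handled mice. All 11 handled mice lay below the non-handled median, and in the column extraction the overlap came from a single non-handled mouse, NH170, at 71.5, since the next lowest non-handled mouse was at 137. The difference was -0.70 ± 0.19 (SE, limma adjusted p = 0.0153), or 1.62-fold lower in handled mice, against -0.17 in its decile. In that decile 11.2% of probe sets had a more negative difference. The difference at 1427782_a_at was past the threshold without any single mouse (adjusted p 0.00489 to 0.0306), but not after quantile normalization (-0.44, adjusted p = 0.153) or scaling (-0.45, adjusted p = 0.131).

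The other Crhr1 probe set, 1418810_at, had signals of 112, 143.9 and 177 in handled mice, against 98.8, 178 and 300 in non-handled mice. Again all 11 handled mice lay below the non-handled median, but the difference was smaller, at -0.27 ± 0.17 (SE, adjusted p = 0.289). The difference between the 2 probe sets in their handling effect was 0.42 on the log2 scale (exact permutation test within extraction, two-sided, p = 0.0512, and 0.154 after adjustment over the 9 same-gene pairs of probe sets). Across the mice, the deviations of the 2 probe sets from their group means correlated at only 0.02. The comparisons of same-gene probe sets, here and below, were chosen after seeing the data.

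**Figure D2:**
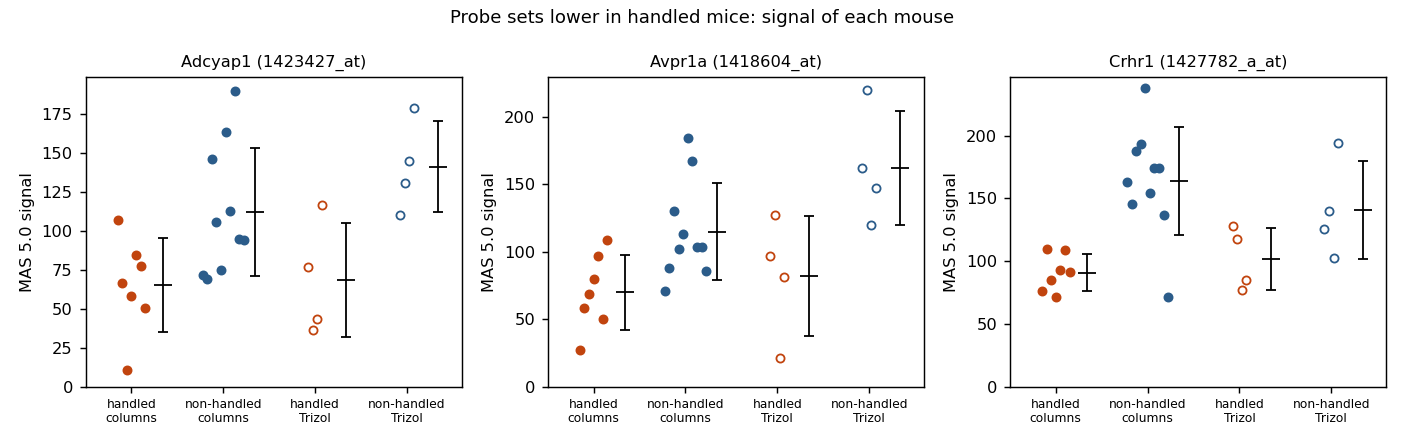
MAS 5.0 signal (y axis, linear) of each mouse at the probe sets of Adcyap1, Avpr1a and Crhr1 that were lower in handled mice, by handling and RNA extraction, with mean and SD as horizontal and vertical bars. Of the 11 handled mice, 10 lie below the non-handled median for Adcyap1 and Avpr1a and 11 for Crhr1, with H110 at 10.6 for Adcyap1 and NH170 at 71.5 for Crhr1 away from the rest of their groups.

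Crh encodes the CRH precursor itself. Its single probe set ran at 167.04, 205 and 287 (lowest, median and highest) in handled mice of the columns, against 161, 217 and 287 in non-handled mice, so that these ranges were almost the same. With Trizol it was 136, 140, 143 and 150 in handled mice, against 166.5, 171.5, 232 and 328 in non-handled mice, without overlap between the groups. Among Trizol mice every handled mouse lay below every non-handled mouse at 1 of the 18 member probe sets and at 2.94% of all probe sets, and above every one at 0 of 18 and at 0.908%. In Trizol mice alone, limma called 0% of probe sets, higher or lower, with 2870 at an unadjusted p under 0.05, and 1 without the trended prior, and Crh was not called (-0.60 ± 0.30, SE, adjusted p = 0.794). Over all mice the difference was -0.22 ± 0.15 (adjusted p = 0.333), with a 95% interval of -0.53 to 0.08. The difference between extraction methods in the Crh effect was 0.56 ± 0.31 (columns minus Trizol, adjusted p = 0.708).

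Crhbp encodes a secreted protein that binds CRH and keeps it from its receptors. Its signal was 563, 824 and 978 in handled mice of the columns, against 499, 736 and 1047 in non-handled mice. The Trizol values were 743, 758, 774 and 854 in handled mice, against 676, 689, 849 and 896 in non-handled mice. Although 10 of 11 handled mice lay above the non-handled median, the spread was wider than the shift, and the difference was 0.12 ± 0.10 (adjusted p = 0.445) with a 95% interval of -0.08 to 0.32.

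In the hippocampus, CRH and its binding protein are known from interneurons. Of 10 interneuron markers 7 were not called, 2 were higher in handled mice (4.47% of lead probe sets were), Gad2 (0.86, adjusted p = 0.000320) and Gad1 (0.30, adjusted p = 0.0465), and 1 was lower (against 9.7%), Pvalb (-0.32, adjusted p = 0.0401). The median difference of the 10 was 0.04. Their summed signal ran at 21635 to 30687 in handled mice, against 16909 to 24043 in non-handled mice, and none was at 0. Its part in the values of Crh, Crhbp and the neuropeptide Y receptors was not tested.

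Crhr2, the receptor that prefers the urocortins, was dim at both probe sets, which stayed below the median of the array in all 25 mice. At 1422012_at the signal was 14.8, 62.8 and 73.7 in handled mice, against 40.0, 73.9 and 115.5 in non-handled mice, and 5 of 11 handled mice lay below the lowest non-handled mouse. In columns the medians were 62.8 in handled and 62.5 in non-handled mice, and 3 of 7 handled mice lay below the non-handled median. With Trizol the medians were 45.9 and 97.6, and 4 of 4 lay below. The difference was -0.75 ± 0.32 (adjusted p = 0.125) at this probe set and -0.49 ± 0.32 (adjusted p = 0.328) at 1450462_at, against -0.35 in their decile. Outside neurons Crhr2 is known from the choroid plexus. Of 5 choroid plexus markers 3 were not called and 2 were lower in handled mice (against 9.7% of lead probe sets), Clic6 (-0.63, adjusted p = 0.0154) and Folr1 (-0.86, adjusted p = 0.0232), and none was at 0. Their sum was 441 to 636 in handled mice (median 557), against 519 to 3297 in non-handled mice (median 791). The value of 3297 was that of a Trizol mouse with Ttr at 2805, and in columns non-handled mice reached 1029. Only 2 of the 5 markers had a mean signal above the median of all probe sets. The part of this sum in the Crhr2 values was not tested.

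Adcyap1r1 encodes PAC1, the receptor selective for PACAP, and was measured by 3 probe sets. The brightest, 1429022_at, was at 1754, 1994 and 2050 in handled mice of the columns, against 1460, 1854 and 2270 in non-handled mice. With Trizol the signals were 1111, 1223, 1239 and 1401 in handled mice, against 947, 1273, 1546 and 1607 in non-handled mice. The handled mice sat inside the range of the non-handled mice under both methods, and the difference was 0.06 ± 0.09 (adjusted p = 0.690) with a 95% interval of -0.11 to 0.23.

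At the Adcyap1r1 probe set 1450799_at the handled mice ran lower. Its signal was 90.6, 143.8 and 201 (lowest, median and highest) in handled mice, against 139, 185 and 271 in non-handled mice, and 5 of 11 handled mice lay below every non-handled mouse. The difference was -0.45 ± 0.16 (SE, limma adjusted p = 0.0699), which missed the threshold. It passed with only the upper 50% of probe sets by signal tested (adjusted p = 0.0408), with array weights (0.0410), and without H123 (0.0498) or H126 (0.0471), and gave -0.23 (adjusted p = 0.421) after quantile normalization. The gap in handling effect between 1429022_at and 1450799_at was 0.51 (exact permutation test, two-sided, p = 0.00569, and 0.0512 over the 9 pairs). The medians of their deciles were 0.06 and -0.08, a gap that the exact test did not take into account. The dimmer 1439042_at gave -0.68 ± 0.40 (adjusted p = 0.265).

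Oxtr encodes the oxytocin receptor. At 1440888_at its signal was 95.9, 148 and 190 in handled mice of the columns, against 123.5, 155.97 and 243 in non-handled mice. With Trizol it was 37.1, 140, 161 and 161 in handled mice, against 43.4, 51.8, 91.4 and 168.5 in non-handled mice. The order of the groups thus turned between the extraction methods, with -0.28 ± 0.21 in columns and 0.49 ± 0.58 in Trizol, but the interaction was not called (-0.77 ± 0.51, adjusted p = 0.769). Over all mice the difference was -0.03 ± 0.24 (adjusted p = 0.952), and at the dimmer 1426000_at it was -0.73 ± 0.45 (adjusted p = 0.299). The sign at 1440888_at turned after quantile normalization (0.21, adjusted p = 0.682) and scaling (0.22, adjusted p = 0.669).

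The neuropeptide Y receptors had the 2 most positive differences of the set. Npy1r encodes the Y1 receptor, which sits on neurons that receive neuropeptide Y. At 1421471_at the signal was 398, 428 and 808 in handled mice of the columns, against 97.4, 352 and 647 in non-handled mice, and all 7 handled mice lay above the non-handled median. The Trizol signals were 296, 354, 381 and 567 in handled mice, against 305, 354, 379 and 443 in non-handled mice. The shift was thus seen in the columns (0.68 ± 0.25, SE, limma adjusted p = 0.0758) and not in Trizol (0.08 ± 0.23, adjusted p = 0.959), though the difference between methods was not called (0.59 ± 0.41, adjusted p = 0.779). Over all mice it was 0.48 ± 0.20 (adjusted p = 0.103), or 1.40-fold, where the median of its decile was -0.01.

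The column value of Npy1r turned on which non-handled mouse was counted. Without NH162, the lowest at 97.4, the column difference at 1421471_at was 0.49, and without NH155, the highest at 647, it was 0.79 with an adjusted p of 0.0305. The second Npy1r probe set, 1426054_at, ran the other way in the columns, at 42.4, 62.7 and 71.8 in handled mice, against 57.8, 95.3 and 177 in non-handled mice (-0.82 ± 0.28, adjusted p = 0.0587). In Trizol it gave 0.46 ± 0.51, and its interaction of -1.27 ± 0.53 had the smallest p of the members (adjusted p = 0.603). The 2 probe sets of Npy1r differed in their handling effect by 0.88 (exact permutation test, two-sided, p = 0.0257, and 0.116 over the 9 pairs), and their deviations correlated at -0.16. The medians of their deciles over all mice were -0.01 and -0.27, a gap that the exact test did not take into account.

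Npy2r encodes the Y2 receptor, which is known mainly from nerve endings, where it limits release. Its signal was 50.9, 132 and 277 in handled mice of the columns, against 43.2, 99.2 and 230 in non-handled mice. With Trizol it was 98.4, 104, 125.6 and 294 in handled mice, against 7.39, 12.02, 84.0 and 307 in non-handled mice. The wide Trizol range came from the non-handled mice, of which NH138 and NH147 were near the bottom of the scale and NH146 was the brightest of all 25. Although 10 of 11 handled mice lay above the non-handled median, the difference of 0.76 ± 0.43 was not called (SE, limma adjusted p = 0.251, 95% interval -0.12 to 1.64). It depended on single non-handled mice, with 0.47 (adjusted p = 0.436) without NH138 and 1.00 (adjusted p = 0.1001) without NH146.

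**Figure D3:**
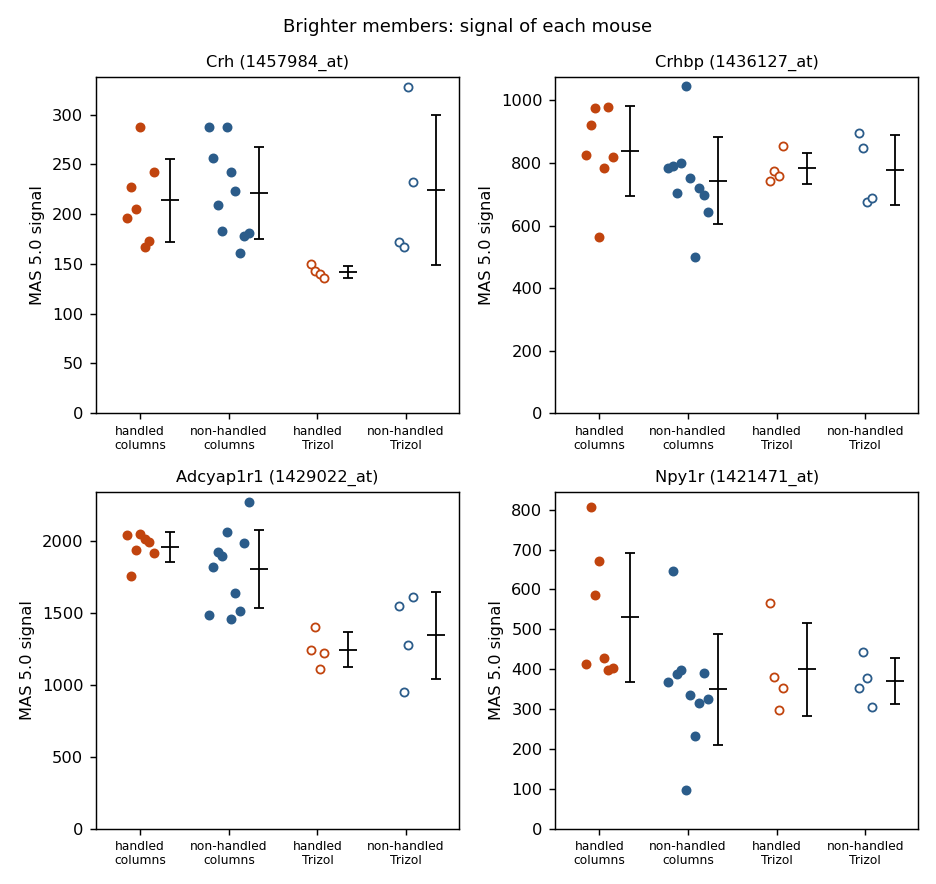
MAS 5.0 signal (y axis, linear) of each mouse for Crh, Crhbp, Adcyap1r1 and Npy1r, by handling and RNA extraction, with mean and SD as horizontal and vertical bars. The groups overlap in each panel except for Crh in Trizol mice, where handled mice lie at 136 to 150 and non-handled mice at 166.5 to 328 (2.94% of all probe sets lie apart in this direction), and Adcyap1r1 is lower in Trizol mice of both groups.

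**Figure D4:**
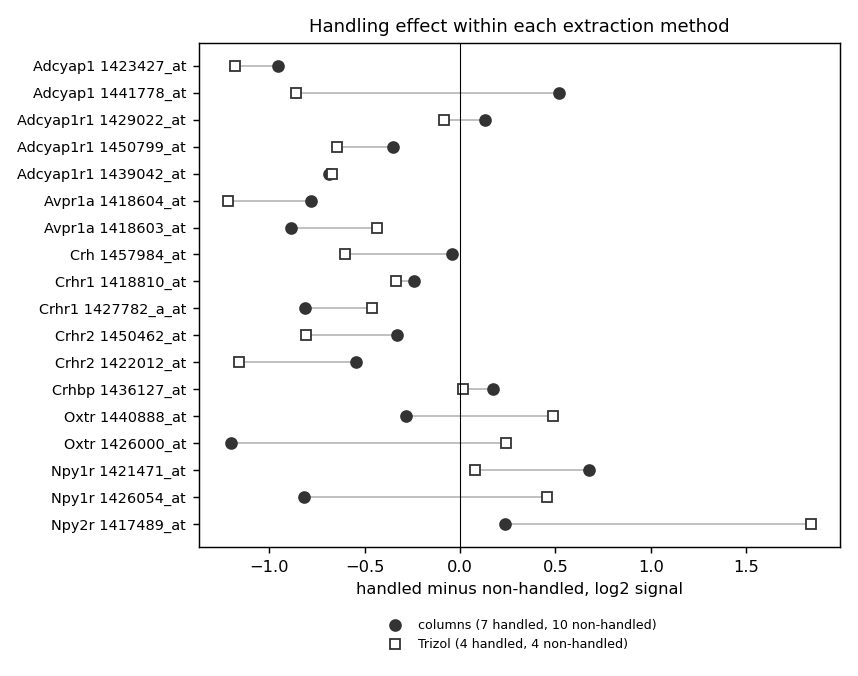
Difference between handled and non-handled mice in log2 signal (x axis) at each member probe set, estimated separately in mice extracted with columns (circles, 7 handled and 10 non-handled) and with Trizol (squares, 4 handled and 4 non-handled). Adcyap1 1423427_at, Avpr1a 1418604_at and both Crhr1 probe sets lie below 0 under both methods. The sign differs between the methods at both Oxtr probe sets, Adcyap1 1441778_at, Adcyap1r1 1429022_at and Npy1r 1426054_at.

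Within the extraction methods, the direction of the 3 called probe sets was the same. In columns, where 12% of all probe sets were called, 4.36% higher and 7.65% lower, 1 of the 18 was lower, Crhr1 1427782_a_at (-0.81 ± 0.23, limma adjusted p = 0.0214). Adcyap1 1423427_at gave -0.95 ± 0.38 (adjusted p = 0.0997) and Avpr1a 1418604_at gave -0.78 ± 0.30 (adjusted p = 0.0856) in the same mice. In Trizol the values were -1.18 ± 0.47 for Adcyap1 and -1.22 ± 0.52 for Avpr1a (adjusted p = 0.775 for both), and -0.46 ± 0.38 for Crhr1 (adjusted p = 0.844). None of the 18 had an interaction of handling with extraction past the threshold in limma, against 0.0511% of all probe sets, and 1 had an unadjusted p under 0.05.

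Some receptors differed between the extraction methods. Of the 18 member probe sets, 2 were higher with columns than with Trizol and none were lower, against 39.8% called over the array, 16.5% higher and 23.3% lower. Adcyap1r1 1429022_at was at 1460 to 2270 in the 17 column mice, against 947 to 1607 in the 8 Trizol mice, a difference of 0.54 ± 0.09 (SE, limma adjusted p = 7.67e-06). The median of its decile was 0.26, and 69.9% of the probe sets in that decile had a smaller difference. Oxtr 1440888_at was at 95.9 to 243 with columns, against 37.1 to 168.5 with Trizol, a difference of 0.77 ± 0.26 (adjusted p = 0.0157), where the median of its decile was -0.28. The Oxtr call was lost without H126 (adjusted p = 0.0575), NH144 (0.0555) or NH147 (0.0625), and with the 3' to 5' ratios of the control probe sets as covariates (0.28, adjusted p = 0.752). The split of calls over the array depended on scaling, with 41.4% of them higher in columns as deposited, 57.1% after quantile normalization and 57.8% after scaling. Cell type markers differed between the methods as well. With columns, 6 of 7 CA1 markers were higher and 1 lower. All 5 astrocyte and 4 oligodendrocyte markers and 4 of 5 microglia markers were higher. Of 6 CA3 markers 1 was higher and 2 lower, and 2 of 6 dentate and 2 of 4 thalamus markers were lower. Over all lead probe sets 23.7% were higher and 17.5% lower. The part of the marker shifts in the receptor values was not tested.

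Among pairs of members, the receptors of neuropeptide Y were the only pair to pass by rank and did not pass by Pearson's r. After removal of the 4 group means, the log2 signals of Npy1r and Npy2r correlated at r = 0.386 (permutation p = 0.00919, adjusted p = 0.414 over 45 pairs of members) and at rho = 0.605 (permutation p = 0.00069, adjusted p = 0.0310, n = 25 mice). The value of r was 0.490 in columns and 0.491 in Trizol, and 0.479 without the pair of mice farthest from the Npy1r median. By Pearson's r none of the 45 pairs passed after adjustment, and r ranged from -0.360 to 0.499 with a median of -0.06.

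**Figure D5:**
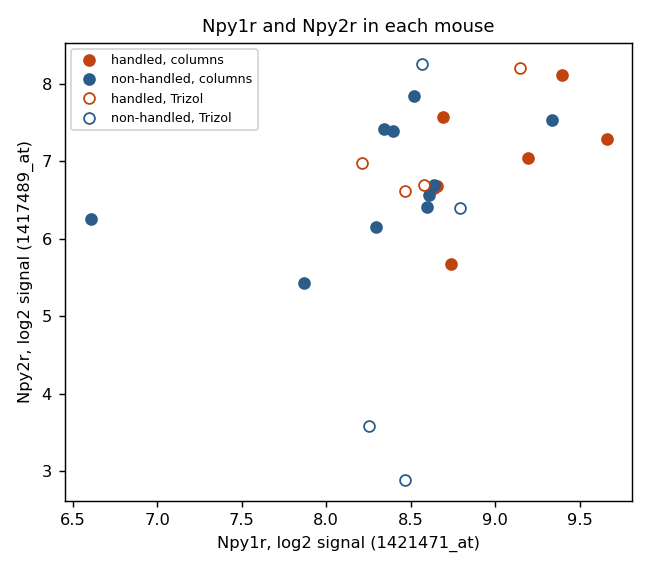
Log2 signal of Npy2r (y axis, 1417489_at) against Npy1r (x axis, 1421471_at) in each of 25 mice, by handling and RNA extraction. The lowest value on each axis belongs to a non-handled mouse, at a signal of 97.4 for Npy1r and 7.39 for Npy2r.

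Beyond the set, the genes whose deviations over the 25 mice were most like those of a member were described by r alone, among 11514 genes in the upper 50% of signal. Npy1r was closest to Cab39 and Gmcl1 (r = 0.932 for both, and 0.814 and 0.821 without H109 and NH162). Npy2r was closest to Elavl2 (0.843) and Rragd (0.786), and Crhbp to Gm5124 (0.799) and Zfp653 (0.708). The value for Zfp653 was 0.383 without H116 and NH165, and 0.784 in columns against 0.130 in Trizol. For Adcyap1r1 these were Snx3 (0.770) and Tmem8b (0.764), for Oxtr Vcl (0.761) and Lztr1 (0.726, but 0.213 in columns, 0.946 in Trizol and 0.538 without H126 and NH147), for Crhr1 Rnf166 (0.756) and Hip1r (0.715), and for Crh Rbmxl1 (0.712) and Pde7b (0.703). For the remaining pairs r was 0.583 to 0.812 without the 2 mice farthest from the member's median. The points share the array and its scaling.

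Of the relatives of the members, none passed the test. In the 14 genes of the same ligand and receptor families, which include vasopressin, oxytocin, the urocortins, Vip, Npy and the remaining receptors, limma called none (2 had an unadjusted p under 0.05), where 9.7% of lead probe sets over the array were lower and 4.47% higher. The smallest p belonged to Ucn3, a urocortin that binds Crhr2 (-0.95 ± 0.36, adjusted p = 0.0776, and 0.0319 without the trended prior or 0.0458 without H126), and Npy5r, the Y5 receptor (0.26 ± 0.11, adjusted p = 0.111). Npy itself showed -0.10 ± 0.14 (adjusted p = 0.667).

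Among 25 other peptide receptors, 5 were lower in handled mice and none were higher (1 had a positive difference at an unadjusted p under 0.05). That is 20% lower, where 9.7% of all lead probe sets were lower and 4.47% higher. The median difference was -0.36 in this list and -0.12 over all lead probe sets. Only 12 of the 25 had a mean signal above the median of all probe sets. Dim probe sets ran lower in handled mice as a class, and the part of this shift in the 5 calls was not tested. Sstr2, a somatostatin receptor, was at 255 ± 46.6 in handled and 412 ± 83.5 in non-handled mice (SD; -0.68, limma adjusted p = 0.000501). Trhr2, a receptor for thyrotropin-releasing hormone, was at 29.0 ± 23.1 in handled and 75.3 ± 38.8 in non-handled mice (-1.64, adjusted p = 0.00705). Both kept their call under every alternative that tested them, in contrast to Oprk1, the kappa opioid receptor (-0.90, adjusted p = 0.0231), and Cckbr, the brain cholecystokinin receptor (-0.42, adjusted p = 0.0395), whose calls were lost after quantile normalization and scaling. The Oprk1 call was also lost without H109 (adjusted p = 0.0509), and the Cckbr call held in 12 of the 25 fits that left out 1 mouse (adjusted p 0.0165 to 0.0825).

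Of 21 other neuropeptide precursors, 3 were lower and none were higher (0 with a positive difference at an unadjusted p under 0.05). The share lower was 14.3%, where 9.7% of all lead probe sets were lower and 4.47% higher. The median difference was -0.12 in this list and -0.12 over all lead probe sets. Of the 21, 15 had a mean signal above the median of all probe sets. The part of the shift of dim probe sets in the 3 calls was not tested. Gal, the galanin precursor, was at 73.1 ± 43.0 in handled and 150 ± 44.1 in non-handled mice (SD; -1.26, limma adjusted p = 0.00521), and was called under every alternative. Cort, the cortistatin precursor (-1.03, adjusted p = 0.0377), and Pmch, the precursor of melanin-concentrating hormone (-0.63, adjusted p = 0.0416), were not called after quantile normalization or scaling. With 1 mouse left out, Cort was called in 14 of 25 fits (adjusted p 0.0197 to 0.0712) and Pmch in 8 of 25 (0.0189 to 0.0906). Of 24 G proteins and effectors, 2 were higher, Gnai3, an inhibitory G protein subunit (0.30, adjusted p = 0.0188), and Plcb1, a phospholipase (0.25, adjusted p = 0.0258), and 3 were lower, led by the adenylyl cyclases Adcy3 (-0.47, adjusted p = 0.0135) and Adcy1 (-0.30, adjusted p = 0.0323). That is 8.33% higher and 12.5% lower, near the 4.47% and 9.7% of all lead probe sets. Gnai3 and Plcb1 were not called after quantile normalization (adjusted p = 0.0656 and 0.0613) or scaling (0.113 and 0.768), and Adcy3 was not called with no extraction term (0.0635). Plcb1 lost its call without H109 or H117, and Adcy1 held its call in 19 of 25 fits that left out 1 mouse.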

How the data were processed

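For each mouse 1 array was hybridized with CA1 RNA of 11 handled and 14 non-handled mice. The authors generated the intensity values as MAS 5.0 linear signal in Affymetrix Expression Console, scaling each array by a single factor without normalizing the distribution. Each mouse contributes 1 value per probe set. Handling was given by litter, so the number of litters, which is smaller than that of mice, limits the precision of the handling effect. The extraction text of the labels, which names positions in the sample list, gave the method for each mouse. All 25 columns were used.

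The 64 control probe sets of 45101 were excluded. The remaining 45037 were analysed as log2 signal by limma 3.58.1 (R 4.3.3), with lmFit, eBayes and a trended prior, two-sided, handling and extraction being terms and p-values adjusted by Benjamini-Hochberg over all of them (threshold 0.05). The platform annotation gives 34958 probe sets a single gene, 932 more than 1 and 9211 no gene. Symbols of 34754 probe sets were updated by gene identifier. The lead probe set of a gene has its highest mean log2 signal. Correlations used deviations from the 4 group means and 100000 permutations within groups. Exact tests reassigned handling within extraction (1361360 ways). Python 3.11.15, numpy 2.4.6, pandas 2.3.3, scipy 1.17.1 and matplotlib 3.10.9 were used, and the tests were tried on simulated data. Promoter windows came from RefSeq, build GRCm38.p6.

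Every probe set of a member is reported. Of each list of other genes, up to 4 called genes with the smallest p were named, or 2 where none was called. For each member in the upper 50% of signal the 2 genes most alike were named. The members and the lists were chosen with earlier results of these data known. Alternatives were quantile normalization, scaling to a common mean and variance, an offset of 36.1 before log2, a filter on dim probe sets, no trended prior, array weights, no extraction term, the 3' to 5' ratios of Gapdh and Actb as covariates, and each mouse left out.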

Additional observations from a re-analysis of the deposited data

Results flagged for a closer look

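In 8 of 72 groups of mice, formed by probe set, handling and extraction, 1 mouse stood far from the others of its group on the log2 scale by Dixon's test, where chance gives about 1 group in 20. For Adcyap1 1423427_at the handled mouse H110 of the columns was at 10.6, where the next was at 50.4. For Crhr1 1427782_a_at the non-handled column mouse NH170 was at 71.5, where the next was at 137. At Adcyap1r1 1450799_at the non-handled column mouse NH166 was the highest, at 271, and at 1439042_at the handled column mouse H117 was the lowest, at 10.2. H117 was also the lowest handled column mouse at Avpr1a 1418603_at, at 1.25, and NH167 was the lowest non-handled column mouse there, at 8.33. Crhbp had its lowest handled column value in H116, at 563, where the next was at 783. For Oxtr 1440888_at the handled Trizol mouse H126 was at 37.1, where the next was at 140.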

How the results depend on the processing

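The count of member probe sets lower in handled mice, 3 of 18 over all mice, was 0 after quantile normalization and 0 after scaling the arrays to the same mean and variance. In columns alone it was 1 as deposited, 0 and 0 under those settings, 2 without the trended prior and 2 with array weights, and ran from 1 to 2 as each mouse was left out (2 without NH142 or NH155), where Npy1r 1426054_at was the added probe set. The count higher in columns ran from 0 to 1 (1 without NH155). The count of member probe sets higher with column extraction, 2 as deposited, was 8 after quantile normalization, 5 after scaling and 1 with the 3' to 5' ratios as covariates, and ran from 1 (without H126, NH144 or NH147) to 4 (without NH146). The cause was not tested. No called value turned its sign under any alternative run. Over the whole array, 1614 probe sets were higher and 3571 lower in handled mice as deposited (31.1% of calls higher), against 1316 and 1594 after quantile normalization (45.2%) and 1719 and 1850 after scaling (48.2%). Counts fell to 459 higher and 1842 lower with no extraction term. No paired analysis was possible because the mouse numbers are not shared between the groups. Dim probe sets limit what could be seen: the standard error was 0.09 at Adcyap1r1 1429022_at and 0.54 at Adcyap1 1441778_at.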
